A study of Homo sapiens with 4 samples.

Results

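Open sites in gene deserts were described in C4-2B cells and in C4-2BER cells. A gene desert was taken here as any stretch of chromosomes 1 to 22 that lay more than 500 kb from every protein-coding transcription start site (TSS) of GENCODE, and an accessible interval was a desert site when its midpoint fell in such a stretch. By this rule 6351 of the 145461 intervals of C4-2B on these chromosomes and 4534 of the 115338 of C4-2BER were desert sites, spread over 372 deserts that together held 347 Mb of assembled sequence, or 12.6% of these chromosomes. The rule used position only, and no measured value entered it.

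C4-2B is an androgen-responsive prostate adenocarcinoma cell line, and C4-2BER (C4-2B_Enza_Resist in the labels) is a neuroendocrine-like line grown out of it under lasting enzalutamide treatment, a blocker of the androgen receptor. C4-2BER is thus a derivative of a single parental line, and the labels give neither a passage nor a dose. Both lines were grown in RPMI medium with serum, and per the study's methods C4-2BER was kept in enzalutamide throughout, so an effect of the drug at harvest and a lasting difference between the lines cannot be told apart. The assay was ATAC-seq, where Tn5 transposase inserts adapters into open chromatin, with 2 libraries per line that the authors merged before peaks were called. There was therefore 1 list per line, without a replicate check, and no test between the lines could be made. Bracketed ranges after a share are Wilson 95% intervals, which cover counting error only. C4-2B had a depth of 30.2 M reads and C4-2BER 25.2 M, and all 6 luminal and all 6 neuroendocrine marker genes had an open promoter in both lists, so these markers did not tell the lines apart. Positions are those of hg38.

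Gene deserts hold few genes but many of the long-range enhancers of the developmental genes at their edges, and such enhancers act over large distances when chromatin folds them towards a promoter. Open chromatin far from any promoter is mostly made of enhancers, where sequence-specific factors displace nucleosomes, and of sites of CTCF, the protein that anchors chromatin loops. In prostate luminal cells the androgen receptor binds mainly at such distal sites, where the forkhead protein FOXA1 opens the chromatin first.

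To show what these sites look like, 121 bases of the plus strand around the summit are given for sites of each class, with motif matches in capitals. Motif examples were limited to sites with a match inside these bases, and not all chromosomes were searched for them. C4-2B sites that had no overlapping interval in C4-2BER are called C4-2B-only. Within the limits for motif examples, the strongest C4-2B-only site with a forkhead match lay between NXPH1 and NDUFA4 (chr7:9322381-9322501, forkhead match in capitals). Within the same limits, the strongest with an androgen response element lay between REEP3 and LRRTM3 (chr10:64109558-64109678, androgen response element in capitals).
NXPH1–NDUFA4, C4-2B-only: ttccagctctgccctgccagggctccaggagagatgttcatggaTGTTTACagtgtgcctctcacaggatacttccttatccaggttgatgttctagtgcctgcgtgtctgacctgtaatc
REEP3–LRRTM3, C4-2B-only: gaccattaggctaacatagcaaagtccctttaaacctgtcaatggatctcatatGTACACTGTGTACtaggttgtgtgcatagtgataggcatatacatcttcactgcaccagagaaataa

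Among C4-2BER-only sites, the strongest with a match for HNF1, a regulator of liver and gut genes, lay between CA10 and KIF2B (chr17:53227640-53227760, HNF1 match in capitals).
CA10–KIF2B, C4-2BER-only: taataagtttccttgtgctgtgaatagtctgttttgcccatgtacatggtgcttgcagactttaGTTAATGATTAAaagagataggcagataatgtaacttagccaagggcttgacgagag

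For sites open in both lines, the strongest of all lay between EPHA3 and PROS1 next to the centromere of chromosome 3 (chr3:93470541-93470661), in sequence of only 21.4% GC within 100 bp of the summit. Within the limits given for motif examples, the strongest shared site with a CTCF match lay between ZNF337 and DEFB115 (chr20:30585400-30585520, CTCF match in capitals).
EPHA3–PROS1, both lines: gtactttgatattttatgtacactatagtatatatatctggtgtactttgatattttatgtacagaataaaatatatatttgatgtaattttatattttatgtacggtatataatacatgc
ZNF337–DEFB115, both lines: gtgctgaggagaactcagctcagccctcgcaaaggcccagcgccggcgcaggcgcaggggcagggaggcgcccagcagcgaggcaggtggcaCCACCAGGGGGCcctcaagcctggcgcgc

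The first comparison asked how much of the open chromatin of the deserts was found in both lines. In C4-2B, 3261 of 6351 desert sites (51.3%, 50.1 to 52.6) overlapped a C4-2BER interval by at least 1 bp. In C4-2BER, 3290 of 4534 desert sites (72.6%, 71.2 to 73.8) overlapped a C4-2B interval. The remaining 3090 C4-2B-only sites made up 48.7% of the desert sites of that line, against 37.6% of all its intervals on chromosomes 1 to 22, and the 1244 C4-2BER-only sites made up 27.4%, against 20.6%. A larger share of desert sites than of all sites was therefore found in a single line, in either direction.

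Part of that difference went with signal strength. At its summit the median desert site held 20 reads (C4-2B) and 16 (C4-2BER), compared with 27 and 20 at distal sites, those 2 to 500 kb from a TSS. Distal sites were shared in 58.6% (58.4 to 58.9) of cases for C4-2B and 78.0% (77.7 to 78.3) for C4-2BER, and in 54.4% and 75.1% after weighting them to the strength deciles of the desert sites. The desert shares of 51.3% and 72.6% stayed below these weighted values. When only intervals with a −log10 q of at least 10 were counted as line-only, 1167 C4-2B sites (18.4%, 17.4 to 19.3) and 175 C4-2BER sites (3.86%, 3.34 to 4.46) remained, against 14.1% and 3.87% of all intervals of the lists. The strong C4-2BER-only share of the deserts was thus close to that of all intervals. Both shares have all sites, weak ones included, as their base. Of the C4-2BER sites, 40.1% in deserts and 48.7% at distal sites were that strong. Among these strong sites, 175 of 1817 in deserts and 3330 of 43239 at distal sites were C4-2BER-only.

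The numbers of line-only sites depended on list length. With the longer C4-2B list reduced to its strongest intervals, as many as C4-2BER had, 1892 C4-2B-only and 1697 C4-2BER-only desert sites remained, and the shared percentages were 59.5% and 62.6%. The count was still larger in C4-2B, but by far less than the 3090 against 1244 of the whole lists. Scaling the C4-2B reads to the depth of C4-2BER left 6349 C4-2B desert sites, against 6351 as reported, and 3089 C4-2B-only sites. Because this scaling left the C4-2B list almost unchanged, it cannot decide how far the line-only counts depended on depth.

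Accessibility fell steadily with distance from genes. The density of C4-2B intervals went from 181 per Mb within 2 kb of a TSS to 29.5 per Mb at 250 to 500 kb, and on to 23.4 at 500 to 750 kb, 15.0 at 1000 to 2000 kb and 5.51 beyond 2000 kb. In C4-2BER the density went from 174 to 21.6, 16.6, 10.4 and 4.78 per Mb over the same distances. The shared percentage of C4-2B fell from 84.2% at promoters to 52.9% at 250 to 500 kb and was 50.6%, 51.6% and 51.1% in the next 3 distance classes, so that there was no step at the edge of the deserts. Beyond 2000 kb, where only 166 C4-2B and 144 C4-2BER sites were left, it was 66.3% (58.8 to 73.0) and 75.7% (68.1 to 82.0). Gapless deserts were at most 3.70 Mb long, so this last class lay mostly in deserts with an assembly gap or a chromosome end. Distance and such sequence cannot be told apart there, for density or for sharing. Sites just inside the limit, 500 to 550 kb from a TSS, were shared in 51.7% (C4-2B) and 71.1% (C4-2BER) of cases, and those just outside, at 450 to 500 kb, in 50.3% and 73.6%.

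**Figure D1:**
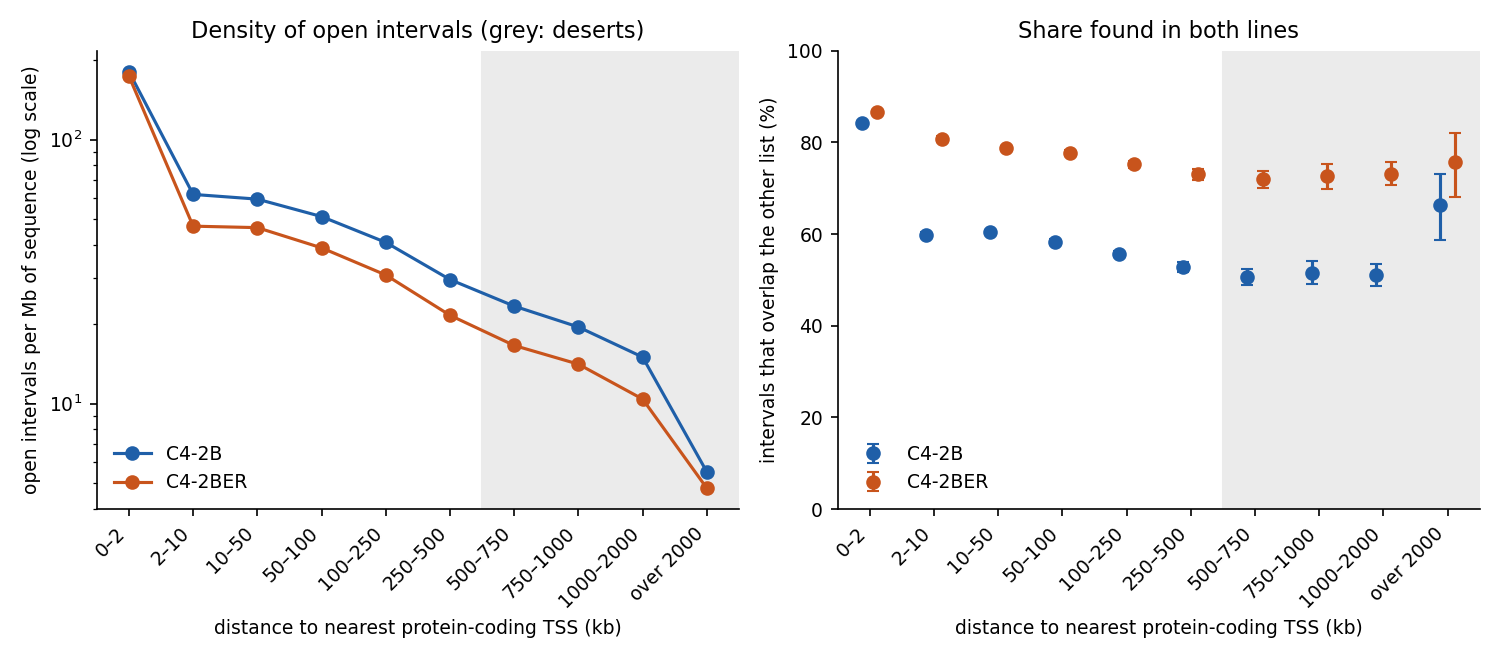
Open intervals per Mb of assembled sequence on a log scale (left) and the percentage of intervals that overlap the other list (right, bars are Wilson 95% intervals) against the distance to the nearest protein-coding TSS in kb, for C4-2B (blue) and C4-2BER (orange), with the deserts shaded grey. Density falls from 181 and 174 per Mb within 2 kb to 5.51 and 4.78 beyond 2000 kb, and the shared percentage of C4-2B levels off near 51% at the edge of the deserts. The class beyond 2000 kb lies mostly in deserts with an assembly gap or a chromosome end.

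Desert sites differed from the distal sites in their surroundings. They were narrow, with a median width of 327 bp in C4-2B and 312 bp in C4-2BER, and their GC content within 100 bp of the summit had a median of 43.8% and 45.3%, compared with 47.3% and 48.3% at distal sites and 36.9% over all desert sequence. Long non-coding RNA (lncRNA) genes covered 28.2% (27.1 to 29.3) of the C4-2B desert sites and 28.0% (26.7 to 29.3) of the C4-2BER desert sites, against 18.1% and 18.4% of distal sites. No lncRNA share of all desert sequence is given for comparison. Only 5.32% and 5.45% of desert sites lay inside the body of a protein-coding gene, against 52.0% and 50.7% of distal sites. This contrast follows largely from the rule, since a desert site is more than 500 kb from every protein-coding TSS. The local background was at the genome-wide floor for 68.9% of C4-2B and 71.6% of C4-2BER desert sites, and for 37.2% and 37.4% of distal sites.

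C4-2B-only sites were weaker than the shared ones, with a median of 17 reads against 26, and C4-2BER-only sites likewise, with 12 against 18. The strongest C4-2B-only sites nevertheless ranked among the top few percent of the whole list. The strongest, between JRKL and CNTN5 on chromosome 11 and inside the lncRNA gene LINC02553, held 125 reads (fold enrichment of 18.1, −log10 q of 112) and exceeded 98.0% of all C4-2B intervals. The site between NXPH1, which encodes a neuronal ligand of neurexins, and NDUFA4 held 109 reads (22.1-fold). Others were a site between TRHDE and ATXN7L3B with 95 reads and a site between TSN and CNTNAP5 with 88 reads and an AP-1 match.

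The strongest C4-2BER-only sites were weaker than these. The site between COBL and POM121L12 held 53 reads (15.4-fold, −log10 q of 47.9) and exceeded 88.1% of the C4-2BER list. The site between QKI and C6orf118 held 47 reads, that between PCDH7, a protocadherin, and ARAP2 held 61, and that between MAT2B and TENM2 held 40 and had a forkhead match. A direct repeat of at least 16 bases within 100 bp of the summit, a feature examined after sequences of these sites were seen, was present in 7.15% (5.85 to 8.72) of C4-2BER-only, 4.82% (4.12 to 5.64) of C4-2B-only and 5.58% (4.84 to 6.42) of shared desert sites of C4-2B, and in 5.13% of all desert windows of the same length. At distal sites it was 6.25% of C4-2BER-only and 3.55% of C4-2B-only sites.

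The 3 strongest shared sites were alike in both lines, and all lay in deserts with an assembly gap or a chromosome end. The EPHA3–PROS1 site held 189 (C4-2B) and 195 (C4-2BER) reads, a site on the short arm of chromosome 21, before TPTE, held 207 and 182, and a site between ZNF337 and DEFB115 held 248 and 233. Reads from near-identical copies of such sequence can be placed wrongly, and these values are uncertain. The site farthest from any protein-coding gene was on the same short arm in both lists, 5398 kb from the nearest TSS in C4-2B with 12 reads and 5393 kb in C4-2BER with 27 reads.

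Sites were next counted per desert. Of the 372 deserts, 349 held a C4-2B site and 341 a C4-2BER site, and 18 held none in either list. The median desert was 540.0 kb long and held 12 C4-2B and 8.50 C4-2BER sites, and the highest numbers were 97 and 87. C4-2B had more sites in 271 deserts, C4-2BER in 49, and 34 deserts had equal numbers above 0. C4-2B-only sites outnumbered C4-2BER-only sites in 274 deserts and were outnumbered in 48. The line-only sites were spread over many deserts, in that 64 deserts were needed to reach 50% of the C4-2B-only sites and 56 to reach 50% of the C4-2BER-only sites.

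The pair of deserts with the most sites were at chromosome ends. The short arm of chromosome 21 before TPTE held 97 C4-2B sites (36 of them C4-2B-only) and 87 C4-2BER sites (24 C4-2BER-only) in 3.71 Mb of assembled sequence. The end of chromosome 14 beyond TMEM121, which carries the immunoglobulin heavy chain genes (segments that GENCODE does not class as protein-coding), held 76 and 60 sites in 0.857 Mb, with 22 and 8 line-only. Its density of 88.7 C4-2B sites per Mb compares with 18.3 per Mb over all deserts. A further desert with an assembly gap, ZNF337–DEFB115 across the centromere of chromosome 20, held 60 and 56 sites, and 16 and 11 of them were line-only.

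Among deserts with a gene at either side and no gap, NUDT12–EFNA5 on chromosome 5 held the most sites and also the most C4-2B-only sites of all deserts. EFNA5 encodes ephrin-A5, an axon guidance ligand, and NUDT12 a nudix hydrolase. In its 3.11 Mb there were 86 C4-2B sites, 45 of them C4-2B-only (52.3%, 41.9 to 62.6), and 47 C4-2BER sites, of which 6 were C4-2BER-only (12.8%, 5.98 to 25.2). Its strongest C4-2B-only site (chr5:105898199-105899269) held 89 reads, 2336 kb from NUDT12 and 1772 kb from EFNA5, and others held 62 and 56 reads. Both flanking genes had an open promoter in both lines.

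OTOL1–SI on chromosome 3 was similar, between the inner-ear gene otolin and the intestinal enzyme sucrase-isomaltase. It held 75 C4-2B sites (39 C4-2B-only) and 38 C4-2BER sites, of which 3 were C4-2BER-only (7.89%, 2.72 to 20.8). The strongest C4-2B-only sites there held 80, 58 and 59 reads, and neither flanking gene had an open promoter in either line. CDH9–CDH6, between a pair of cadherin genes, held 38 C4-2B-only and 11 C4-2BER-only sites. PLA2G4A–BRINP3 held 38 and 9, and at its shared sites the median read ratio of C4-2BER to C4-2B, scaled for depth, was 0.646, compared with 0.860 over all shared desert sites. CELF4–PIK3C3, next to a neuronal RNA-binding protein, had high counts in both directions, with 37 C4-2B-only (55.2%) and 17 C4-2BER-only sites (34.7%). C4-2B-only shares were 52.0% in OTOL1–SI, 54.3% in CDH9–CDH6 and 55.1% in PLA2G4A–BRINP3. Their intervals, and those of CELF4–PIK3C3 and NUDT12–EFNA5, included the 48.7% of all deserts. The C4-2BER-only intervals of NUDT12–EFNA5 and OTOL1–SI lay below the 27.4% of all deserts, and those of CDH9–CDH6, PLA2G4A–BRINP3 and CELF4–PIK3C3 included it.

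C4-2B-only sites were again the more numerous in the other deserts with many sites. PCDH7–ARAP2 (69 C4-2B and 52 C4-2BER sites), TENM4–FAM181B (69 and 49) and TMEM132B–TMEM132C (69 and 44) held 36, 30 and 34 C4-2B-only sites against 16, 11 and 8 C4-2BER-only sites. Their C4-2B-only shares of 52.2%, 43.5% and 49.3% had intervals that included the 48.7% of all deserts. Their C4-2BER-only shares of 30.8%, 22.4% and 18.2% had intervals that included the 27.4% of all deserts. The longest gapless desert, AGA–TENM3, spanned 3.70 Mb and held 63 and 49 sites, with 27 and 12 line-only. NCAM2–MRPL39 spanned 3.33 Mb and held 47 and 30 sites, with 28 and 12 line-only. Among deserts with at least 10 sites, C4-2B sites were least often shared in NXPH2–LRP1B, where 11 of 14 were C4-2B-only, and in PEX2–PKIA and GLRX3–TCERG1L, with 10 of 13 each. The NXPH2 promoter itself was open only in the C4-2BER list.

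**Figure D2:**
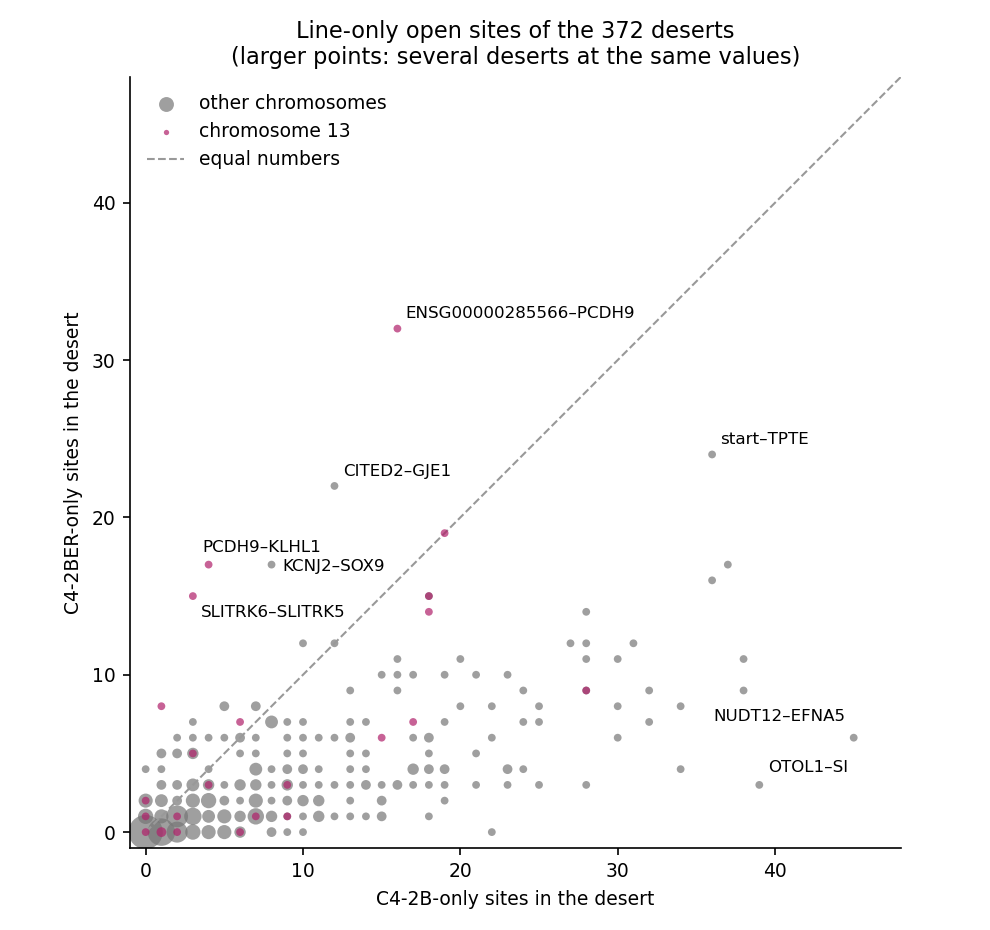
Number of C4-2B-only sites (x axis) and of C4-2BER-only sites (y axis) in each of the 372 deserts, with a point for each pair of values, larger where several deserts have it, and the dashed line at equal numbers. Most deserts lie below the line, with NUDT12–EFNA5 at 45 and 6, and deserts of chromosome 13 (red) are among the few above it, with ENSG00000285566–PCDH9 at 16 and 32.

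Deserts with an excess of C4-2BER-only sites were few, and 8 of the 48 were on chromosome 13, which has 24 of the 372 deserts. The largest count was in ENSG00000285566–PCDH9, between a protein-coding gene without a symbol and protocadherin 9, a neuronal adhesion gene. It held 36 C4-2B sites, 16 of them C4-2B-only, and 52 C4-2BER sites, of which 32 were C4-2BER-only (61.5%, 48 to 73.5). At a −log10 q of at least 10 there were 4 C4-2B-only and 3 C4-2BER-only sites, compared with 1167 and 175 over all deserts. On the other side of PCDH9, the desert up to KLHL1 held 8 C4-2B sites and 21 C4-2BER sites, and 17 of the 21 were C4-2BER-only (81.0%, 60 to 92.3), the lowest shared percentage of any desert with at least 10 C4-2BER sites. Its strongest C4-2BER-only sites held 34, 44, 32, 31 and 27 reads and were spread over the whole desert, from 506 kb to 2335 kb beyond PCDH9. Of its line-only sites, 5 C4-2BER-only and 0 C4-2B-only sites had a −log10 q of at least 10. SLITRK6–SLITRK5, between a pair of genes of synaptic membrane proteins, held 12 C4-2B sites and 24 C4-2BER sites, 15 of them C4-2BER-only, and its line-only sites at a −log10 q of at least 10 numbered 0 and 3. OLFM4–PRR20A/PRR20C held 19 line-only sites of each line. PCDH9, SLITRK6 and SLITRK5 had open promoters in both lines and KLHL1, OLFM4 and ENSG00000285566 in neither.

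Over all chromosome 13 deserts, 166 of 364 C4-2BER sites were C4-2BER-only (45.6%, 40.6 to 50.7), against 27.4% over all chromosomes and 25.9% (24.5 to 27.2) on the others. The C4-2B-only share was ordinary, at 49.1% (44.1 to 54.1). At a −log10 q of at least 10 the C4-2B-only sites were the more numerous, 67 against 29, as in deserts of the other chromosomes (1100 against 146). These 29 were among 364 C4-2BER sites on chromosome 13, and the 146 among 4170 on the other chromosomes. Distal sites were then counted in the stretch chr13:64333054-92366281, a span set after the counts were known by the outer deserts with more C4-2BER-only than C4-2B-only sites, so that the 52.1% (45.4 to 58.8) of its 211 C4-2BER desert sites that were C4-2BER-only follow from the choice. Its distal sites, which did not enter the choice, were C4-2BER-only in 217 of 426 cases (50.9%, 46.2 to 55.7), compared with 20.9% (19.3 to 22.7) on the rest of the chromosome and 21.9% (21.6 to 22.2) on the other chromosomes. Desert sites on the rest of chromosome 13 were C4-2BER-only in 36.6% (29.4 to 44.5) of cases, above the 25.9% of other chromosomes, so the higher desert share was not confined to the stretch. At shared sites of the stretch the median depth-scaled read ratio of C4-2BER to C4-2B was 1.00 in deserts (quartiles 0.777 and 1.32) and 0.965 at distal sites, compared with 0.866 and 0.761 on the rest of the chromosome. The source of these values was not tested.

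**Figure D3:**
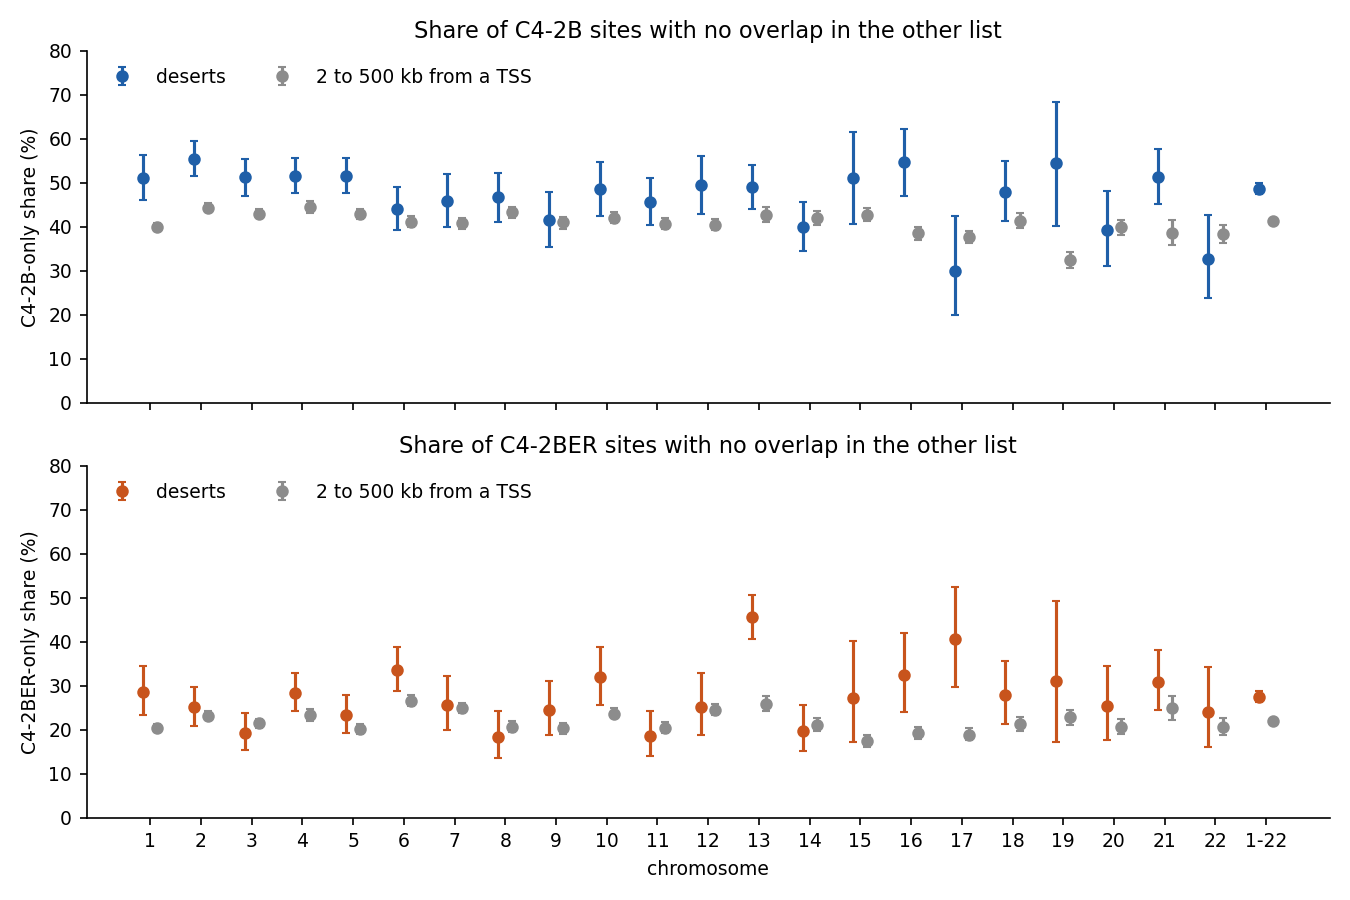
Percentage of desert sites (coloured) and of distal sites 2 to 500 kb from a TSS (grey) that were C4-2B-only (top) and C4-2BER-only (bottom) on each chromosome and over all (1-22), with Wilson 95% intervals. Among deserts, the C4-2BER-only share is highest on chromosome 13 at 45.6%, followed by chromosome 17 at 40.6% (28 of 69 sites), against 27.4% over all chromosomes.

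Beyond chromosome 13, CITED2–GJE1 on chromosome 6 held 40 C4-2B and 49 C4-2BER sites, and 22 of the latter were C4-2BER-only against 12 C4-2B-only sites. At a −log10 q of at least 10 there were 2 C4-2BER-only and 7 C4-2B-only sites, compared with 175 and 1167 over all deserts. CITED2 is a transcriptional co-regulator, and its promoter was open in both lines. The 2 strongest C4-2BER-only sites there, with 25 and 21 reads, were neighbours about 1652 kb from CITED2. KCNJ2–SOX9 on chromosome 17 was singled out after its values were seen, because it held 6 C4-2BER-only sites with a −log10 q of at least 10. This desert is known for enhancers that act on SOX9, a transcription factor of cartilage, testis and epithelial progenitors, over long distances. In 0.951 Mb it held 19 C4-2B and 28 C4-2BER sites, with 8 C4-2B-only and 17 C4-2BER-only (60.7%, 42.4 to 76.4).

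The strongest C4-2BER-only site of the SOX9 desert (chr17:71440389-71441430) held 58 reads with a fold enrichment of 8.02. It lay 680.1 kb from the nearest SOX9 TSS and had forkhead, HOXB13 and CEBP matches within 100 bp of its summit. The others held 30, 33, 28, 29 and 22 reads and lay 957 to 1443 kb from SOX9. The C4-2B-only sites of this desert included 1 with a −log10 q of at least 10. Reads at its shared sites were higher in C4-2BER, with a median depth-scaled ratio of 1.33. Over all chromosome 17 deserts, 28 of 69 C4-2BER sites were C4-2BER-only (40.6%, 29.8 to 52.4), and the ratio was 1.20. Without KCNJ2–SOX9, 26.8% (15.7 to 41.9) of the 41 C4-2BER sites in chromosome 17 deserts were C4-2BER-only and 24.4% (13.8 to 39.3) of the 41 C4-2B sites were C4-2B-only, with a ratio of 1.13.

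**Figure D4:**
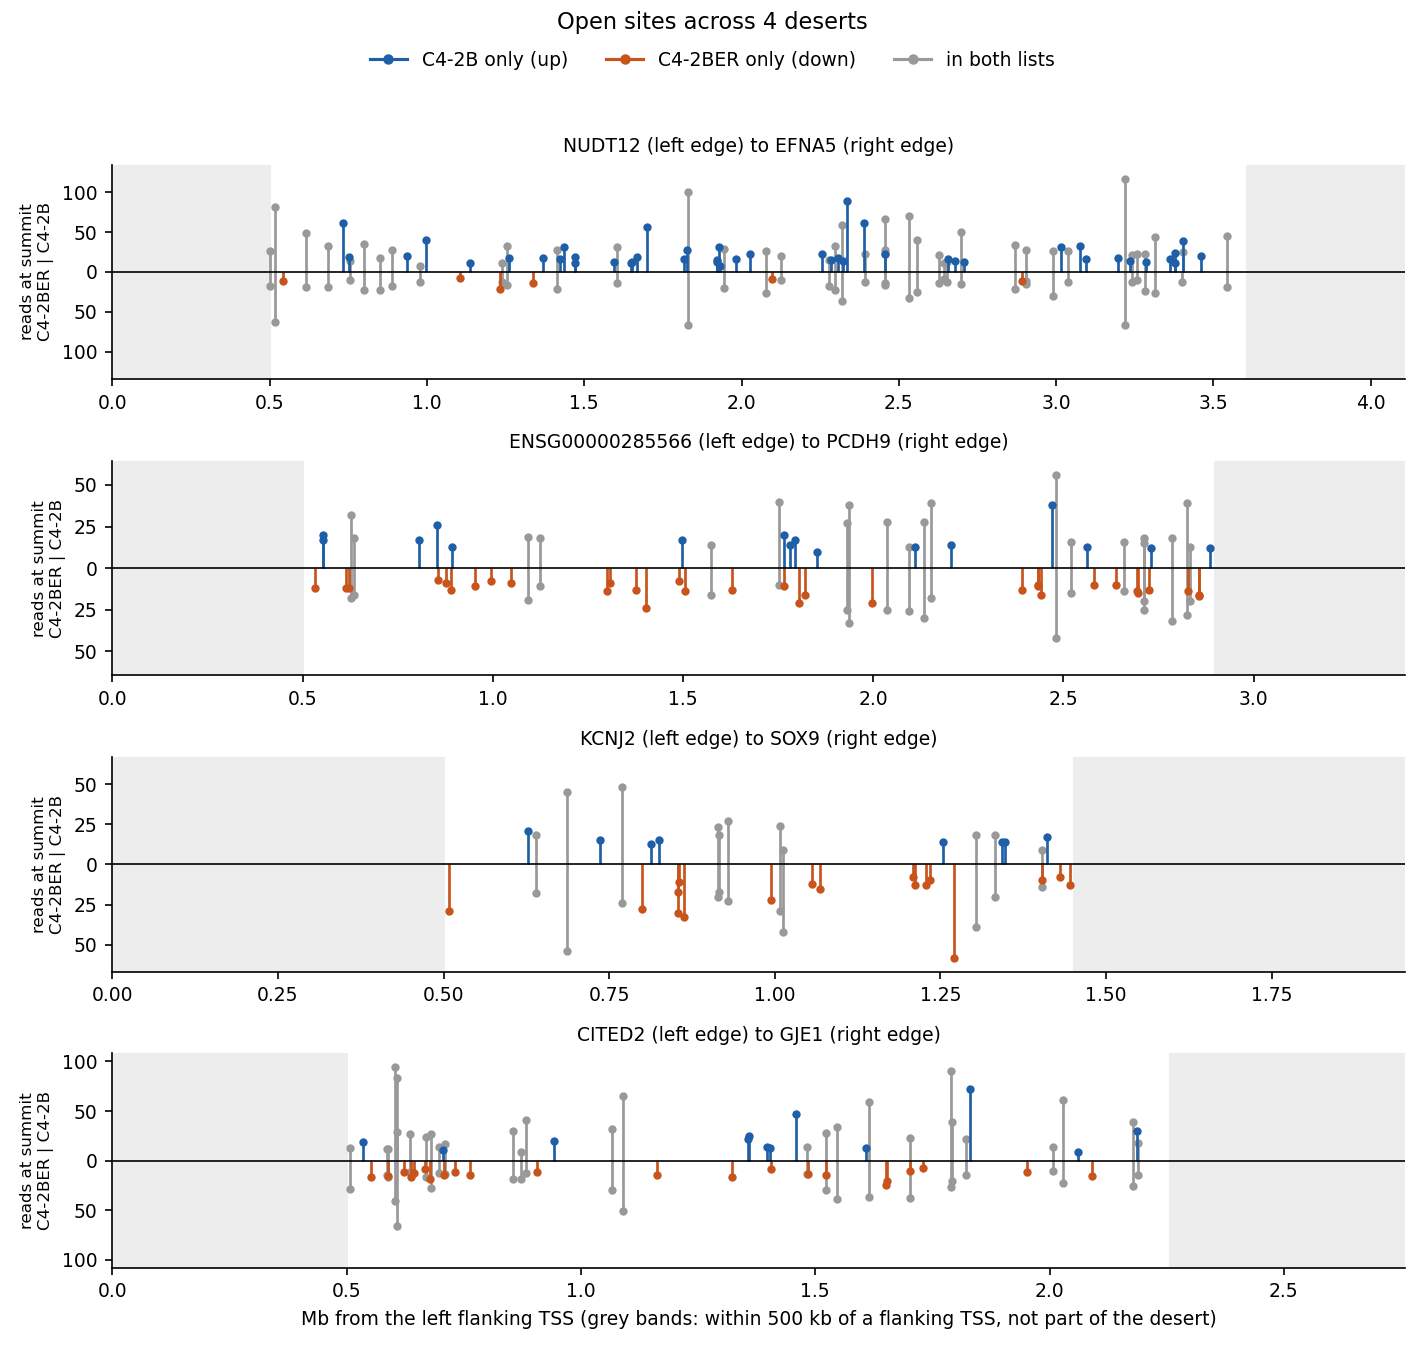
Sites of the 4 deserts NUDT12–EFNA5, ENSG00000285566–PCDH9, KCNJ2–SOX9 and CITED2–GJE1 along the distance in Mb from the left flanking TSS, with the reads at the summit upwards for C4-2B and downwards for C4-2BER, line-only sites in colour and shared sites in grey. Grey bands are the 500 kb next to each flanking TSS, and NUDT12–EFNA5 shows 45 C4-2B-only sites along its whole length and the other 3 deserts show more C4-2BER-only than C4-2B-only sites.

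Line-only sites tended to lie next to each other. In C4-2B, the nearest other desert site was itself C4-2B-only for 53.5% (51.8 to 55.3) of C4-2B-only sites and 45.5% (43.8 to 47.2) of shared sites, at a median distance of 10.9 and 11 kb. In C4-2BER the values were 34.7% (32.1 to 37.4) and 25.2% (23.7 to 26.7). Neighbouring sites were therefore not independent, which the intervals of the shares leave out.

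Of 18765 protein-coding genes, 669 (3.57%) flanked a desert, and of 96 genes in a list of neuronal adhesion and guidance genes 62 did (64.6%), as did 43 of 146 transcription factors of a list of developmental regulators (29.5%). Both lists were chosen with earlier results of these data known, and most of the 669 flanking genes were in neither. The 80 deserts beside an adhesion or guidance gene held a median of 27 C4-2B and 16.5 C4-2BER sites, and 50.5% and 27.7% of their sites were line-only, close to the 48.7% and 27.4% of all deserts. The 46 deserts beside a transcription factor held 46.7% C4-2B-only and 32.0% C4-2BER-only sites. Promoters of flanking genes were mostly open in both lines (542 of 669, 81.0%). An open promoter in C4-2BER alone was found at 33 flanking genes (4.93%, 3.53 to 6.85) and in C4-2B alone at 9 (1.35%, 0.709 to 2.54), whereas for all protein-coding genes it was 3.31% and 2.89%. These promoter counts rest on whole lists of unequal length. Among flanking genes named here, TPTE, TMEM132C and NXPH2 had a promoter interval in C4-2BER alone.

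The letters around the summits differed between the classes of desert sites. Motifs were searched on both strands within 100 bp of the summit, and the share of all 201-bp windows of desert sequence with a match was taken as a background. A match is a description of letters and not a bound site. The classes also differed in base composition, with a median GC of 42.3% at C4-2B-only, 44.8% at C4-2BER-only and 45.8% at shared desert sites. Desert sequence had 36.9%, and the part of base composition in the motif shares was not tested. No motif contains another, although matches of several pairs, such as HNF1 and PBX-HOX or forkhead and SOX, can share bases.

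The androgen response element (GNACA and TGTNC, 3 bases apart), the site of the androgen receptor and its relatives, was present in 2.69% (2.17 to 3.32) of C4-2B-only sites and in 0.322% (0.125 to 0.824) of C4-2BER-only sites. Shared sites of C4-2B had it in 0.920% (0.645 to 1.31) of cases and desert sequence in 0.174%. Within the limits of the printed examples, the strongest such C4-2B-only site was the REEP3–LRRTM3 site, with 94 reads (17.6-fold). It exceeded 94.2% of the C4-2B list. The interval of the C4-2BER-only share included the background, with 4 of 1244 sites. At distal sites the shares were 2.91% and 0.245%, so deserts and distal sites were alike in this respect.

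The forkhead motif (TGTTTAC or TATTTAC) was the most frequent in C4-2B-only sites, at 26.3% (24.8 to 27.9). It was present in 22.5% (21.1 to 24) of shared sites of C4-2B, 14.5% (12.6 to 16.5) of C4-2BER-only sites and 8.26% of desert sequence. Desert sites had it more often than distal sites in each class, since the latter had 20.4% (C4-2B-only), 10.1% (C4-2BER-only) and 15.4% (shared). Among C4-2BER-only sites of chromosome 13 the share was 8.43% (5.09 to 13.7), near the background, and on the other chromosomes 15.4% (13.4 to 17.7).

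CTCF matches (CCANNAG and GGC, 2 bases apart) marked the shared sites, with 6.96% (6.14 to 7.89) against 0.237% of desert sequence. They were found in 3.30% (2.44 to 4.44) of C4-2BER-only and 1.88% (1.45 to 2.42) of C4-2B-only sites. The distal values were 9.22%, 4.52% and 1.83%. Matches for GRHL (AACCGGTT or AACCTGTT), epithelial factors, were also most frequent in shared sites, at 2.73%, compared with 1.36% and 1.21% in C4-2B-only and C4-2BER-only sites.

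Among desert sites, HNF1 matches (GTTAAT and ATTAA, 1 base apart) were seen in the C4-2BER list only. None of the 6351 desert sites of C4-2B had one, which allows a share of up to 0.0472%, while 7 of 1244 C4-2BER-only sites did (0.563%, 0.273 to 1.16), and 1 of the 3290 shared sites of C4-2BER. Desert sequence had it in 0.0302% of windows, which lies within the limit for C4-2B. The 7 sites were in different deserts, namely CA10–KIF2B, NOX3–ARID1B, CDH8–CDH11, ADAMTS5–N6AMT1, ENSG00000284209–SHCBP1, SLC35B3–TFAP2A and NCAM2–MRPL39. They were modest peaks with 10 to 19 reads. At distal sites, 84 of 19563 C4-2BER-only sites (0.429%, 0.347 to 0.531) and 1 of 48059 C4-2B-only sites (0.00208%) had a match. Shared distal sites had it in 6 of 68138 cases (C4-2B) and 15 of 69292 (C4-2BER). HNF4 (CAAAGTCCA), likewise a factor of liver and gut, went the same way, at 0.804% (0.437 to 1.47) of C4-2BER-only and 0.356% (0.199 to 0.636) of C4-2B-only desert sites, where the intervals overlapped, and at 0.782% (0.668 to 0.916) and 0.302% (0.256 to 0.355) of distal sites, where they did not.

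**Figure D5:**
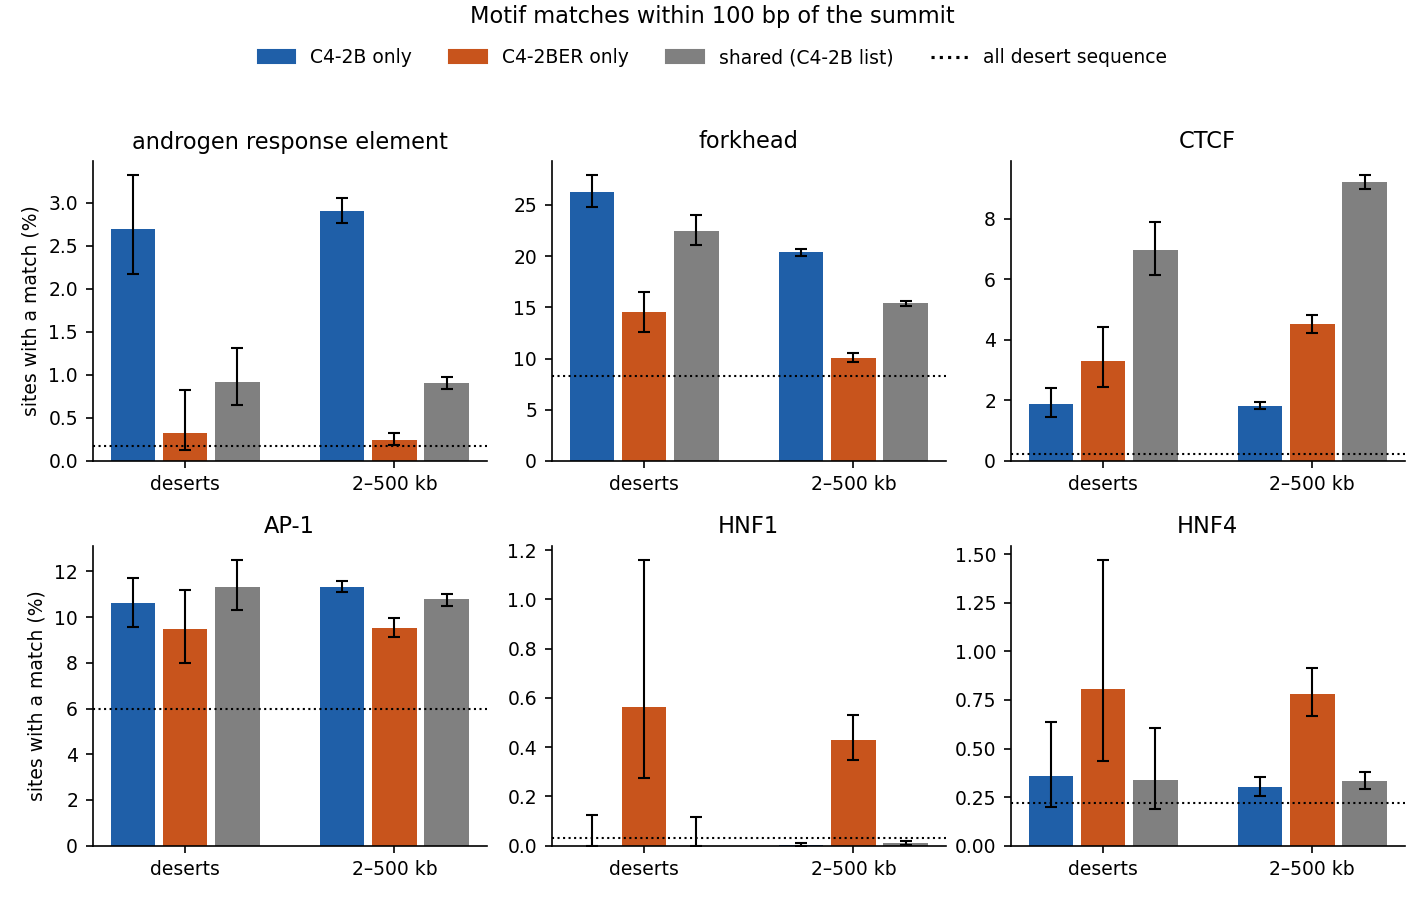
Percentage of desert sites (left group of each panel) and of distal sites 2 to 500 kb from a TSS (right group) with a match to 6 motifs within 100 bp of the summit, for C4-2B-only (blue), C4-2BER-only (orange) and shared sites of the C4-2B list (grey), with Wilson 95% intervals and, dotted, the share of all desert windows. The androgen response element (2.69% against 0.322%) and forkhead matches are higher in C4-2B-only desert sites, and HNF1 matches are seen in C4-2BER-only sites (0.563%) and in no C4-2B desert site.

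GATA and CEBP matches were also more frequent in C4-2B-only than in C4-2BER-only sites. The motif of GATA factors (AGATAAG or TGATAAG) was present in 8.48% (7.55 to 9.51) of C4-2B-only and 5.95% (4.76 to 7.40) of C4-2BER-only sites, and CEBP (TTGCNNAA) in 15.2% (14 to 16.5) and 9.57% (8.05 to 11.3).

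For the other motifs the intervals of C4-2B-only and C4-2BER-only desert sites overlapped. AP-1 (TGANTCA) was present in 10.6% of C4-2B-only, 9.49% of C4-2BER-only and 11.3% of shared sites. The motif of PBX-HOX complexes (TGATTNAT) was present in 3.27%, 3.70% and 3.19%, compared with 4.69% of desert sequence. The PAX5 core (GCGTGAC) was rare, at 0.421% (0.246 to 0.719), 0.241% (0.0820 to 0.707) and 0.644%, compared with 0.134% of desert sequence. Only 3 C4-2BER-only sites had it. At the far more numerous distal sites the intervals of these 3 motifs did not overlap, with 11.3% (C4-2B-only) against 9.54% (C4-2BER-only) for AP-1, 2.88% against 3.52% for PBX-HOX and 0.481% (0.423 to 0.547) against 0.680% (0.574 to 0.805) for the PAX5 core. The E-box CAGCTG was found in 10.8% of the C4-2B-only desert sites and 11.8% of the C4-2BER-only ones, HOXB13 (CCAATAAA or CTCGTAAA) in 2.07% and 1.61%, and NFI in 0.0324% and 0.0804%. SOX (AACAATG) was found in 4.76% and 4.02% and the POU octamer (ATGCAAAT) in 2.36% and 2.81%, and their distal intervals did not overlap either, at 4.28% against 2.94% and 1.59% against 2.01%.

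Finally, some deserts had features that bear on their counts. Apart from the gapless deserts, 22 deserts contained an assembly gap and 7 reached a chromosome end, and these held 493 and 252 C4-2B sites. The C4-2B-only share was 50.0% in the 343 gapless deserts, 42.2% in those with a gap and 31.7% at chromosome ends, and the C4-2BER-only share was 27.8%, 26.4% and 22.1%. In USP25–CXADR on chromosome 21 the median local background of the sites stood at 2.76 (C4-2B) and 2.87 (C4-2BER) times the floor, the only desert with at least 10 C4-2B sites in which it exceeded 2 times in both lists. It held 47 C4-2B sites (32 C4-2B-only) and 22 C4-2BER sites (7 C4-2BER-only), and the part of the raised background in these counts was not tested.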

How the data were processed

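ATAC-seq was carried out on 2 libraries each of C4-2B and C4-2BER cells. Per the study's methods, paired-end reads were trimmed with cutadapt, aligned to hg38 with Bowtie2, filtered for a mapping quality of at least 10 and freed of duplicates with Picard. The submitters' processing notes also name FastQC and bedtools 2.17. Libraries of a line were merged and peaks called with MACS2 (no model, extension of 200 bp, version not given in the sources used here). The shift is printed without a sign.

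The files deposited by the authors hold 1 row per summit. The deposited fold is a ratio, (reads + 1) over (background + 1). The deposited −log10 p of each summit and its −log10 q come from MACS2, the deposited score was not used, and a further deposited column gives the summit offset. Each interval was counted once, with its summit of highest −log10 p. Reads and background were recovered from fold and −log10 p (largest error 0.000259), a step tested on simulated data with the overlap, distance and motif steps. The lowest background, 2.24 (C4-2B) and 1.87 (C4-2BER) reads per 200 bp, gave the depth for a genome of 2700000000 bp. Summits with fewer than 8 (C4-2B) and 7 (C4-2BER) reads are not in the lists, and the lowest −log10 q was 1.30 in both, so absence from a list does not show that a site was closed.

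TSSs were the starts of protein-coding transcripts of 18765 protein-coding genes on chromosomes 1 to 22 (GENCODE release 44, hg38). All assembly gaps were left out of the assembled lengths and densities. A desert between genes was classed as having a gap when its gap sequence came to at least 10000 bp, and as gapless otherwise. A site was shared with an overlap of at least 1 bp, a promoter was open with an interval within 2000 bp of a TSS, and distal sites lay 2000 bp to 500 kb from a TSS. The deserts named were the 10 with the most sites, the 5 with the most line-only sites of each line, the 3 longest without gaps and the 3 with the lowest shared percentage of each list among those with at least 10 sites. The sites named were the 5 strongest line-only, the 3 strongest shared and the farthest of each list. Some of these sites and sequences are not reported here. KCNJ2–SOX9, USP25–CXADR, the chromosome 13 stretch, the direct repeats and the motif examples were chosen after their values were seen. Members, motifs and gene lists were chosen with earlier results of these data known. Sequences were read from hg38, whose copy here has no repeat masking, so the repeat-masked share that had been planned was not computed. As each line had a single merged list, no test was run and no SD or p-value is given. Python 3.11.15, numpy 2.4.6, pandas 2.3.3, scipy 1.17.1 and matplotlib 3.10.9 were used. A share at 0 is given with the limit that 3 counts allow.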

Additional observations from a re-analysis of the deposited data

Results flagged for a closer look

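Chromosome X was outside the description above. It held 226 C4-2B and 128 C4-2BER intervals more than 500 kb from every protein-coding TSS, with medians of 20.5 and 15.0 reads at the summit. Of these, 44.7% (38.4 to 51.2) of the C4-2B and 78.9% (71.0 to 85.1) of the C4-2BER intervals overlapped the other list. They are given because they are a signal outside the chromosomes that were described, and the difference from chromosomes 1 to 22 was not tested.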

How the results depend on the processing

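No paired analysis was possible because the libraries of each line were merged before the deposited lists were made, and for the same reason no library could be left out. The 12 main counts and shares were recomputed under 14 planned settings and 3 added after seeing the data, and 144 of the 198 values stayed within 1.5 times the main count or within the interval of the main share. The shared percentage was lower in C4-2B than in C4-2BER under all 17 settings that apply to it, the main included, and in all 18 settings the androgen response element and forkhead shares were higher in C4-2B-only and the CTCF share higher in C4-2BER-only sites. In what follows values are given for C4-2B and then C4-2BER. With a −log10 q of at least 10 in both lists there were 3453 and 1817 desert sites, shared in 42.1% and 79.8%, with 2001 and 367 line-only, forkhead shares of 29.7% and 23.7% and CTCF shares of 2.70% and 6.81%. At 5 or more, sharing was 47.4% and 76.0%, forkhead 28.0% and 17.0%, and 811 sites were C4-2BER-only. Strong members (3453 and 1817) set against the whole other list were shared in 66.2% and 90.4%, leaving 1167 and 175 line-only with forkhead shares of 32.3% and 22.9%, and C4-2B-only shares of 4.20% (androgen response element) and 1.37% (CTCF). Equal list lengths gave sharing of 59.5% and 62.6%, and 1892 C4-2B-only sites with shares of 3.59% (androgen response element) and 29.1% (forkhead). Sharing was 43.9% and 61.5% with 50% reciprocal overlap (C4-2BER-only forkhead share 17.9%), 48.6% and 68.1% for summits no more than 200 bp apart, and 53.5% and 74.9% when gaps of up to 500 bp were allowed. A limit of 250 kb gave 14872 and 10782 sites with 7106 and 2929 line-only, and a limit of 1000 kb gave 1813 and 1291 with 862 and 342 line-only and C4-2BER-only shares of 11.4% (forkhead) and 5.26% (CTCF). Motifs within 250 bp gave forkhead shares of 38.2% and 26.4%, a CTCF share of 2.43% in C4-2B-only and an androgen response element share of 0.965% in C4-2BER-only sites. Among the settings added later, gapless deserts alone gave C4-2B sharing of 50.0%, sites with a background of at most 2 times the floor 49.4%, and C4-2BER sharing without chromosome 13 was 74.1%. The fewer or more sites follow from the settings themselves, and other causes were not tested.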
